A study of Homo sapiens with 8 samples.

Results

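The DNAJ family, also called HSP40, holds the J-domain co-chaperones of HSP70. It was taken here as every probe of the bead array whose annotated symbol is DNAJA, DNAJB or DNAJC followed by a number, with antisense, pseudogene and readthrough symbols left out. This gave 70 of the 47231 probes, for 45 genes, of which 4 genes are in class A, 13 in class B and 28 in class C. The array measured total RNA of A2780 and SKOV3, established human ovarian cancer cell lines, kept at 37 °C as the control or exposed to hyperthermia at 46 °C. Each of the 4 groups (A2780 at 37 °C, A2780 at 46 °C, SKOV3 at 37 °C and SKOV3 at 46 °C) had 2 arrays, and no other agent or genetic change is named for any of them. The length of the exposure, the time until RNA was collected and whether replicates were separate cultures are not given in the sources used here, so the p-values measure only the spread between these arrays, which may be technical.

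A J-domain protein binds HSP70 through its J domain and stimulates the ATP hydrolysis that locks HSP70 onto an unfolded client, and a nucleotide exchange factor then releases the client. Class A and class B proteins resemble the bacterial protein DnaJ, bind clients themselves and serve general folding, class A with a zinc-finger region that class B lacks. Class C proteins share only the J domain and tie HSP70 to particular places and tasks, such as the import motor of mitochondria, the endoplasmic reticulum (ER), ribosomes, the spliceosome and clathrin-coated vesicles. Heat-shock factor 1 (HSF1) switches on some class A and class B genes in heated cells by binding heat-shock elements, which are inverted repeats of the unit GAA, and the unfolded protein response of the ER switches on others.

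Promoter sequence is a feature that the choice of members did not use. RefSeq promoter windows (GRCh38.p14, 250 bases before the transcript start to 50 bases from it on) were matched by symbol for 40 of the 45 genes, giving 52 windows. A heat-shock element with a pair of units, GAANNTTC or TTCNNGAA (each reads the same on both strands), was present in 9 of the 52 windows (17.3%), against 13.5% of all 35116 windows. These windows belonged to 8 genes: DNAJA1, DNAJA4, DNAJB1, DNAJB4, DNAJB6, DNAJB7, DNAJC6 and DNAJC15. DNAJB7 had no tested probe, and DNAJC6 and DNAJC15 did not pass the test of heat in either line. An element with 3 units, GAANNTTC extended by NNGAA or the reverse complement of that, which contains both of the shorter forms, was present in the windows of DNAJA1 and DNAJB6 and in 0.49% of all windows. The following 4 stretches are shown because DNAJB1 and DNAJB4 rose in the heated cells, while DNAJA4 and the brightest DNAJB6 probe, whose windows hold the same letters, did not pass the test. Each is written 5′ to 3′ on the strand of its gene, with the heat-shock element letters in capitals. They lie at chr19:14518418-14518517 (minus strand), chr1:78004819-78004918, chr15:78264442-78264541 and chr7:157336854-157336953 (plus strand for these 3), upstream of the transcript start, outside the transcript that the window belongs to.
DNAJB1: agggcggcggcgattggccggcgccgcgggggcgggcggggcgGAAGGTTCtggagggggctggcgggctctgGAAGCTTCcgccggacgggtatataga
DNAJB4: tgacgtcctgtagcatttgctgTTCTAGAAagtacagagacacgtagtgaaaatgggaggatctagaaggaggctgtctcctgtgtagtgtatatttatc
DNAJA4: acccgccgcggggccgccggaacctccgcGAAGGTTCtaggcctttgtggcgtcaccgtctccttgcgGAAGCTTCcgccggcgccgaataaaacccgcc
DNAJB6: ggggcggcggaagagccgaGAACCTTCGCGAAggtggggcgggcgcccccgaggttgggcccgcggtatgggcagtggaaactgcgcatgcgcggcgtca
DNAJB1 and DNAJA4 each carried 2 matches in this stretch, beginning 77 and 47 bases upstream of the start in DNAJB1 and 91 and 52 bases upstream in DNAJA4. DNAJB4 carried 1 match, 98 bases upstream, in the only one of its windows that held one, and the 3-unit match of DNAJB6 began 131 bases upstream. The windows of DNAJB9 and DNAJB2, the other members that rose, held none of these letters. The ER stress element, CCAAT followed after 9 bases by CCACG (and its reverse complement), was in no family window and in 0.0769% of all windows, and the core TGACGTGG (reverse complement CCACGTCA) was in a window of DNAJC10 and in 0.729% of all windows. A match is a description of letters, not of binding.

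Levels are given as normalized log2 intensity, the probe's brightness on a log2 scale after background correction and quantile normalization between arrays. A difference of 1 is a 2-fold difference, and levels of different probes cannot be set against each other. Of the 70 probes, 59 probes of 41 genes passed a filter on dim probes, and the 11 probes that did not were above background on none of the 8 arrays. DNAJB7, DNAJB8, DNAJB13 and DNAJC22 had no probe that passed. Each gene was counted by its brightest tested probe. Of the 41 genes, 33 were above background on all 8 arrays, 4 (DNAJA4, DNAJC12, DNAJC15 and DNAJC16) on some of them, and 4 (DNAJB3, DNAJC5B, DNAJC5G and DNAJC6) on none. The DNAJ genes known as testis-enriched were therefore near background throughout: 3 of the 6 on that list were tested and none of the 3 was above background on any array.

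The arrays' median signal was 113.67 to 143.93 and 36.9% to 41.9% of probes were above background, the highest share being on A2780 control replicate 2, whose upper quartile signal was also the highest, 317.14 against 180.98 to 243.07 on the other 7 arrays. No arrays were identical. Of 9 epithelial and ovarian carcinoma markers, none was above background on all 4 A2780 arrays and 2 (KRT18 and EPCAM) were on all 4 SKOV3 arrays, while KRT7, KRT8, CDH1, PAX8, MUC16 and WT1 were above background on none of the 8. Of 4 fibroblast markers all 4 were above background on every A2780 array and 1 on every SKOV3 array (DCN was at 12.21 in A2780 and 6.33 in SKOV3 at 37 °C). The markers of ovarian carcinoma fixed for this check were therefore at or near background in A2780. Of 3 leukocyte markers on the array 1, CD68, was above background on every array, and no endothelial marker was. COL1A1 was the only one of the 11 tested markers that rose at 46 °C in A2780, by 0.84 (adjusted p = 0.00422), and none rose in SKOV3; its part in the DNAJ results was not tested.

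A few class B genes were higher at 46 °C than at 37 °C in both lines. In A2780, 4 of the 41 tested DNAJ genes rose and none fell, all 4 in class B: DNAJB1, DNAJB4, DNAJB9 and DNAJB2. Among all 14189 genes tested, 2.12% rose and 2.14% fell in A2780. In SKOV3, 3 of the 41 rose and none fell, again all in class B: DNAJB1, DNAJB9 and DNAJB4. Among all genes tested, 1.44% rose and 1.49% fell in SKOV3. A higher level of an RNA per sample cannot be told apart from a change in the number of cells that make it. The plot of changes shows DNAJB1, DNAJB4 and DNAJB9 to the right of the rest in both lines. DNAJB2 lies among members that were not called, at 0.543 in A2780 against 0.574 for DNAJA4.

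**Figure D1:**
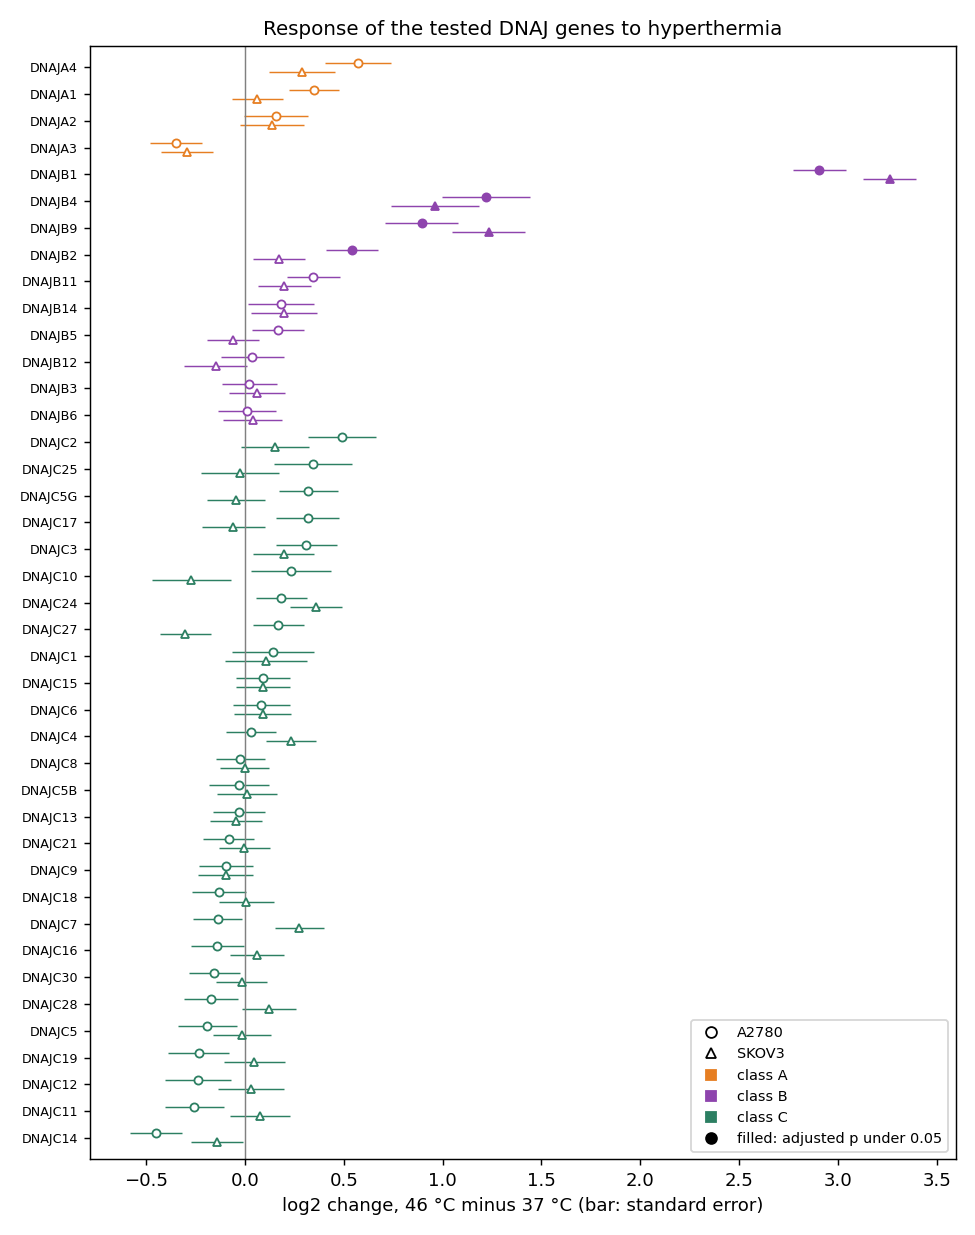
Log2 change at 46 °C against 37 °C for the 41 tested DNAJ genes (circles A2780, triangles SKOV3, bars the standard error, colours the class, filled where the adjusted p is under 0.05). DNAJB1 stands at 2.90 in A2780 and 3.26 in SKOV3, DNAJB4 and DNAJB9 lie near 1, and no class A or class C gene is filled.

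DNAJB1 is the classical heat-inducible HSP40 of the cytosol and nucleus and a main partner of the inducible HSP70s. Its level was 10.13 and 10.37 in A2780 at 37 °C and 13.07 and 13.24 at 46 °C. In SKOV3 it was 10.06 and 10.08 at 37 °C and 13.29 and 13.36 at 46 °C. The control and heated arrays were far apart in both lines, and the 4 control arrays lay within a narrow band, as did the 4 heated arrays. The log2 change was 2.90 ± 0.134 (SE; 7.48-fold; adjusted p = 6.88e-09) in A2780 and 3.26 ± 0.134 (9.58-fold; adjusted p = 1.75e-09) in SKOV3. DNAJB1 passed the test in both lines under all 19 alternatives, the change lying between 2.51 and 3.03 for A2780 and between 3.19 and 3.38 for SKOV3. The 19 alternatives given for a gene leave out a minimum change of 2-fold, which was applied to counts only. DNAJB1 exceeded that minimum in both lines. The changes of DNAJB9 (1.86-fold) and DNAJB2 (1.46-fold) in A2780 and of DNAJB4 in SKOV3 (1.95-fold) were under it.

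DNAJB4, a close relative of DNAJB1 in the cytosol, is also known as a heat-shock gene. Its level was 8.28 and 8.20 in A2780 at 37 °C against 9.25 and 9.67 at 46 °C. In SKOV3 it was 7.69 and 7.59 at 37 °C against 8.17 and 9.04 at 46 °C. Groups did not overlap in either line, and the heated SKOV3 arrays lay further from each other than those of any other group. The log2 change was 1.22 ± 0.223 in A2780 (adjusted p = 0.00659) and 0.96 ± 0.223 in SKOV3 (adjusted p = 0.0359). The gene's other probe gave 1.30 (adjusted p = 0.0076) and 1.10 (adjusted p = 0.0277). The call in A2780 was lost without A2780 control replicate 2 (adjusted p = 0.0525), without A2780 hyperthermia replicate 2 (0.12) or without normalization between arrays (0.078). In SKOV3 it held in 9 of 19 alternatives, and without SKOV3 hyperthermia replicate 2 the change was 0.526 (adjusted p = 0.253); the call was also lost without A2780 hyperthermia replicate 1 or 2 (0.0536 each) and without SKOV3 control replicate 1 (0.208) or 2 (0.309). The other 5 losses were with the authors' log2 values, the floor, median scaling, no normalization and the SKOV3 arrays alone (0.0705 to 0.146).

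DNAJB9, or ERdj4, is a soluble co-chaperone of the ER HSP70 HSPA5 and a known target of the unfolded protein response. Its level was 7.44 and 7.16 in A2780 at 37 °C and 8.11 and 8.28 at 46 °C. In SKOV3 it was 7.67 and 7.51 at 37 °C and 8.51 and 9.14 at 46 °C. Every heated array was above every control array of either line. The log2 change was 0.895 ± 0.185 in A2780 (1.86-fold; adjusted p = 0.0145) and 1.23 ± 0.185 in SKOV3 (2.35-fold; adjusted p = 0.00165). The SKOV3 call held in all 19 alternatives. The A2780 call was lost without A2780 control replicate 2 (adjusted p = 0.149) or A2780 hyperthermia replicate 1 (0.088) or 2 (0.162), with median scaling (0.112) or no normalization between arrays (0.237), and with a floor in place of background correction (0.0512).

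DNAJB2, which carries ubiquitin-interacting motifs and is known for handing clients to the proteasome, was 9.87 and 9.76 in A2780 at 37 °C and 10.42 and 10.30 at 46 °C. In SKOV3 it was 10.17 and 10.26 at 37 °C and 10.47 and 10.30 at 46 °C, so the SKOV3 controls lay between the A2780 groups. The log2 change was 0.543 in A2780 (adjusted p = 0.0331) and 0.173 in SKOV3 (adjusted p = 0.628). Of the 4 calls in A2780 it held in the fewest alternatives: it passed in 11 of 19 alternatives and the change became -0.0292 without normalization between arrays. It was lost without A2780 control replicate 2 (adjusted p = 0.219), A2780 hyperthermia replicate 1 (0.265) or 2 (0.129), or SKOV3 control replicate 1 or 2 (0.0654 each), with median scaling (0.771) and with the A2780 arrays alone (0.0661). A dimmer DNAJB2 probe, above background on 2 arrays, gave 0.01 in A2780 (adjusted p = 0.989) and 0.304 in SKOV3 (adjusted p = 0.303).

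The scale of the A2780 values depended on the normalization. With median scaling in place of quantile normalization the median change of all probes in A2780 was -0.278, and with no normalization between arrays -0.383, whereas it stayed near 0 in SKOV3. Median scaling then called 10 DNAJ genes in A2780, 3 higher and 7 lower, and no normalization called 11, 1 higher and 10 lower. Relative to those medians DNAJB1 was higher by 2.89 on both scales, DNAJB4 by 0.97 and DNAJB2 by 0.35, and DNAJB9 by 0.72 and 0.71, against 2.92, 1.24, 0.56 and 0.92 (in the order DNAJB1, DNAJB4, DNAJB2, DNAJB9) as reported. The direction of DNAJB1, DNAJB4 and DNAJB9 was thus upward on all 3 scales in both lines.

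**Figure D2:**
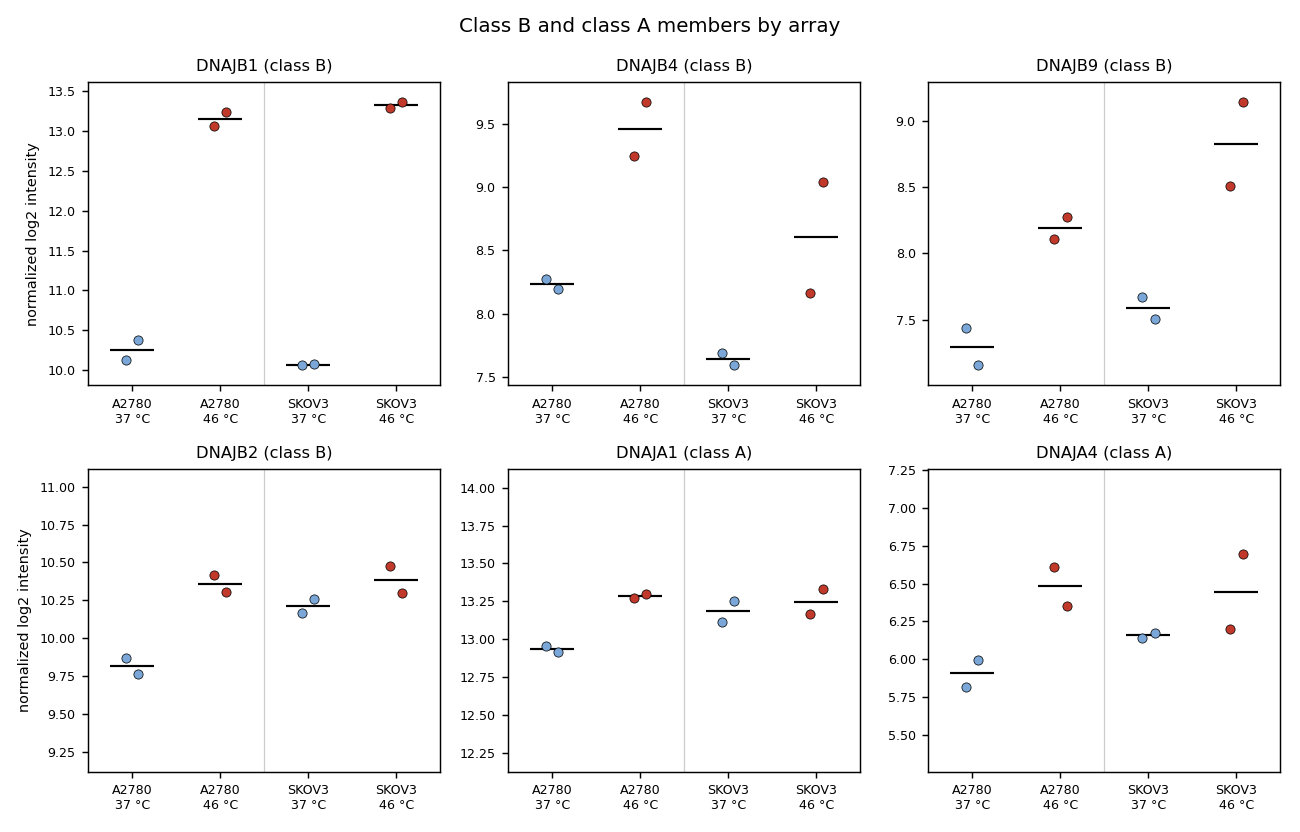
Normalized log2 intensity of 4 class B and 2 class A members on each of the 8 arrays (points; lines are group means of 2 arrays; each panel has its own scale, which does not start at 0). The heated arrays of DNAJB1, DNAJB4 and DNAJB9 lie above the control arrays in both lines, while DNAJA1 overlaps in SKOV3.

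The other 6 tested class B genes did not pass the test in either line. They include DNAJB11 (ERdj3), a soluble ER partner of HSPA5, with changes of 0.346 (adjusted p = 0.197) in A2780 and 0.20 (adjusted p = 0.581) in SKOV3, and the ER membrane protein DNAJB12, with 0.038 and -0.146 (adjusted p = 0.942 and 0.767). Counted by the brightest probe, all 10 tested class B genes had a change above 0 in A2780 and 8 of 10 in SKOV3, with a median of 0.264 and 0.185, whereas other probes of DNAJB12 and DNAJB5 reached -0.36 and -0.16 in A2780. Without A2780 control replicate 1 the A2780 median was 0.42. Over all genes tested the median was -0.0105 and -0.0234. The class B median in A2780 turned to -0.0414 without normalization between arrays, where the median of all probes was -0.383.

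Class A holds the cytosolic co-chaperones DNAJA1, DNAJA2 and DNAJA4 and the mitochondrial DNAJA3, and none of the 4 passed the test in either line. DNAJA4, described as an HSF1 target, had the largest class A change in A2780 as normalized here, but not with the authors' log2 values (0.335, against -0.337 for DNAJA3), with the floor (0.337 against -0.344) or without normalization between arrays (0.496 against -0.706). It was 5.82 and 6.0 at 37 °C and 6.61 and 6.35 at 46 °C, a change of 0.574 (adjusted p = 0.0794). In SKOV3 it was 6.14 and 6.18 at 37 °C and 6.20 and 6.70 at 46 °C, a change of 0.289 (adjusted p = 0.49). DNAJA4 was above background on only 2 of the 8 arrays, both heated, so these changes lie largely within the background range. The A2780 change passed with median scaling (adjusted p = 0.0213) and without SKOV3 hyperthermia replicate 1 or 2 (0.0293 each).

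DNAJA1, the farnesylated and most general class A protein of the cytosol, was 12.95 and 12.92 in A2780 at 37 °C and 13.28 and 13.30 at 46 °C (change 0.351; adjusted p = 0.165). In SKOV3 it was 13.11 and 13.25 at 37 °C and 13.17 and 13.33 at 46 °C (change 0.0646; adjusted p = 0.886), with overlapping groups. DNAJA2 changed by 0.157 and 0.137 (adjusted p = 0.688 and 0.787). DNAJA3, the mitochondrial partner of HSPA9 and the class A gene with the largest SKOV3 change, was 12.30 and 12.13 at 37 °C and 11.91 and 11.82 at 46 °C in A2780, and 11.92 and 12.01 at 37 °C and 11.77 and 11.58 at 46 °C in SKOV3. Its changes, -0.349 (adjusted p = 0.184) and -0.291 (adjusted p = 0.353), were below 0 in both lines and did not pass. With median scaling (-0.60) or without normalization (-0.71) DNAJA3 passed in A2780.

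None of the 27 tested class C genes passed the test in either line by limma; at an unadjusted p under 0.05 there were 3 of the 27 in each line, below the 17.9% (A2780) and 14.8% (SKOV3) of all genes tested. Their log2 changes spanned -0.448 to 0.491 in A2780, where the median was -0.0268, and -0.301 to 0.362 in SKOV3, where it was 0.0104. DNAJC2, the ribosome-associated J protein that acts on nascent chains, had the largest class C change in A2780 as normalized here, though with median scaling it was -0.0659. It was 8.92 and 8.30 at 37 °C and 9.11 and 9.10 at 46 °C (change 0.491; adjusted p = 0.149), the control arrays lying far apart, and without A2780 control replicate 1 the change was 0.801 (adjusted p = 0.00647). In SKOV3 DNAJC2 was 9.12 and 9.04 at 37 °C and 9.18 and 9.29 at 46 °C. DNAJC24, or DPH4, which serves diphthamide synthesis on the translation factor eEF2, had the largest class C change in SKOV3. It was 8.05 and 8.08 at 37 °C and 8.33 and 8.52 at 46 °C (change 0.362; adjusted p = 0.219), and in A2780 7.68 and 7.67 at 37 °C and 7.96 and 7.77 at 46 °C.

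**Figure D3:**
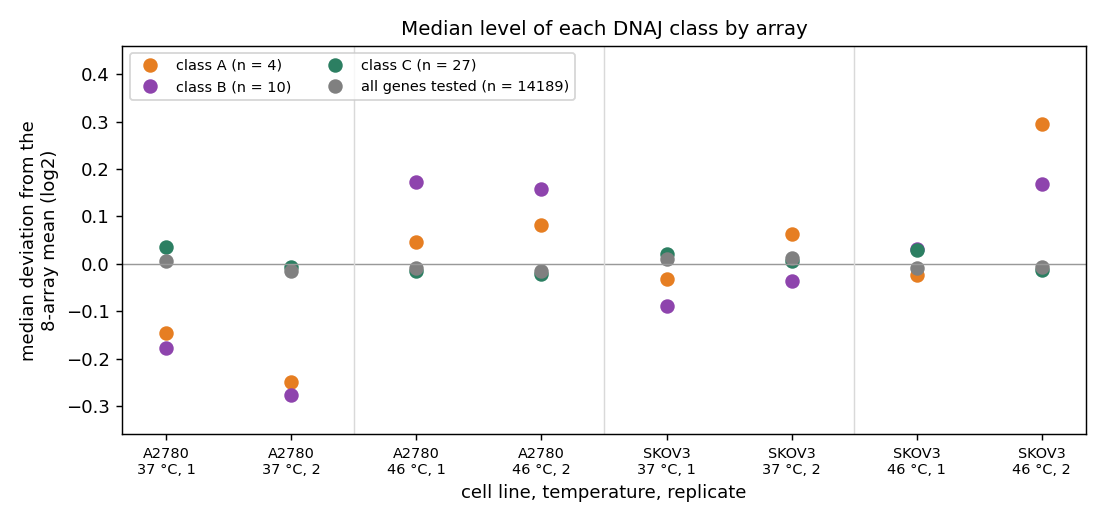
Median deviation of each DNAJ class from its 8-array mean on each array (log2; the 4 class A, 10 class B and 27 class C genes that were tested, and all 14189 genes). The class B median is -0.177 and -0.276 on the A2780 control arrays and 0.172 and 0.157 on the heated ones, while class C stays within 0.0359 of 0.

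The class medians by array show the same pattern over single arrays. The class B median deviation in SKOV3 was -0.0897 and -0.0353 at 37 °C and 0.0305 and 0.169 at 46 °C. The class A median was -0.146 and -0.249 on the A2780 controls and 0.0458 and 0.0817 on the heated A2780 arrays. In SKOV3 the class A groups overlapped, at -0.0314 and 0.062 at 37 °C and -0.0243 and 0.296 at 46 °C, the last value coming from hyperthermia replicate 2. These medians rest on 4 and 10 genes and carry no test.

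By place in the cell, the 8 cytosolic class A and class B genes had 3 that rose in A2780 and 2 in SKOV3, with a median change of 0.447 and 0.155. These are class B genes already counted above. Over all genes tested, 2.12% rose in A2780 and 1.44% in SKOV3. How the medians by place depend on the normalization was not tested. Of the 10 ER genes, 1 rose in each line, DNAJB9, and the group's median was 0.208 in A2780 and 0.0852 in SKOV3. None of the 7 mitochondrial genes passed, with a median of -0.17 and 0.0783. The A2780 median is the value of DNAJC28, whose probes disagree as described for probes of one gene, and without that gene the medians were -0.193 and 0.0635. DNAJC11, a partner of the cristae-organizing MICOS complex, had -0.254 and 0.078 (adjusted p = 0.427 and 0.883). None of the 6 genes listed under splicing, translation and the nucleus passed, with a median of -0.0513 and -0.00118. The list is DNAJC2, DNAJC7, DNAJC8, DNAJC9, DNAJC17 and DNAJC21. It includes DNAJC7, which binds both HSP70 and HSP90. DNAJC7 had the list's lowest change in A2780 (-0.137) and its highest in SKOV3 (0.275). The splicing factor DNAJC8 lay between 12.30 and 12.41 on all 8 arrays (it was chosen after its values were seen). None of the 7 genes of membrane traffic passed, with a median of -0.0268 and -0.0441; the endosomal protein DNAJC13 had -0.027 and -0.044.

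No DNAJ gene passed the test of a difference between the lines' responses. The difference of the responses (SKOV3 minus A2780) passed limma's test for 0 of the 41 genes, against 0.0987% of all genes tested, and 2 of the 41 were under an unadjusted p of 0.05, below the 8.42% of all genes tested. Those 2, named because the count is small and after their values were seen, were DNAJC7, a co-chaperone that binds both HSP70 and HSP90, with a difference of 0.412 (adjusted p = 0.579), and DNAJC27, a GTPase of the Rab family with a J domain, with -0.47 (adjusted p = 0.545). The difference was 0.356 for DNAJB1 (95% interval -0.0521 to 0.764; adjusted p = 0.64), 0.339 for DNAJB9 (-0.225 to 0.903) and -0.26 for DNAJB4 (-0.939 to 0.42). The 95% interval lay within -1 and 1 for 40 of the 41 genes. The exception was DNAJC10, whose interval reached -1.12. Differences of under 2-fold could therefore go undetected for many members, and the count of 0 held under every alternative run.

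Some genes of the HSP70 system that these co-chaperones serve were higher on the same heated arrays, while most of those listed were not called. Of 32 listed partner genes, 29 were tested, and 8 rose and none fell in A2780, while 5 rose and none fell in SKOV3. The other 21 in A2780 and 24 in SKOV3 were not called. Called or not, 9 of the 29 had a change below 0 in A2780 and 12 in SKOV3. Over all genes tested, 2.12% rose in A2780 and 1.44% in SKOV3. The HSP70s with the smallest adjusted p were HSPA6, HSPA1A and HSPA1B. HSPA6, the strictly inducible HSP70, rose by 7.26 on the log2 scale in A2780 (adjusted p = 4.21e-13) and 7.14 in SKOV3 (adjusted p = 1.06e-12). HSPA1A, at background on every control array, rose at least 100.5-fold in A2780 (adjusted p = 4.21e-13) and at least 60.5-fold in SKOV3 (adjusted p = 1.31e-12), and HSPA1B rose by 3.13 and 2.65 on the log2 scale (adjusted p = 1.49e-09 and 9.82e-09); the pair is nearly identical in sequence and their probes may cross-react. The ER HSP70 HSPA5, partner of DNAJB9, rose by 1.79 (adjusted p = 4.37e-06) and 1.60 (adjusted p = 2.27e-05), and the exchange factor BAG3 by 1.74 (adjusted p = 1.71e-06) and 1.45 (adjusted p = 1.7e-05). HSPA2 rose in A2780 at least 1.46-fold from a level not above background (adjusted p = 0.00128). By group, 5 of 11 HSP70s and 3 of 14 exchange factors rose in A2780 and 4 of 11 and 1 of 14 in SKOV3, and none of the 3 tested J-domain proteins with other names did. None of the 29 passed limma's test of a difference between the lines' responses (3 were under an unadjusted p of 0.05, near the 8.42% of all genes tested).

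At 37 °C, before any heat, 8 of the 41 DNAJ genes differed between the lines. DNAJC15, DNAJC17, DNAJC24 and DNAJB2 were higher in SKOV3, and DNAJC1, DNAJC3, DNAJC12 and DNAJC30 were lower. Among all genes tested 15.3% were higher in SKOV3 and 13.5% lower, so the family's shares of 4 in 41 each way lie somewhat below the background. At an unadjusted p under 0.05 by limma there were 18 of the 41 (43.9%), above the 38.3% of all genes tested. Class C held 16 of these among its 27 genes (59.3%). No result about the family is read from these shares. None of the 4 class A genes, 1 of 10 class B genes and 7 of 27 class C genes differed. With median scaling the count was 17 (1 higher, 16 lower) and without normalization between arrays 20 (1 higher, 19 lower). DNAJC15, DNAJC1, DNAJC3, DNAJC12 and DNAJC30 kept their direction on these scales. DNAJB2 and DNAJC24 turned on both and DNAJC17 without normalization.

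**Figure D4:**
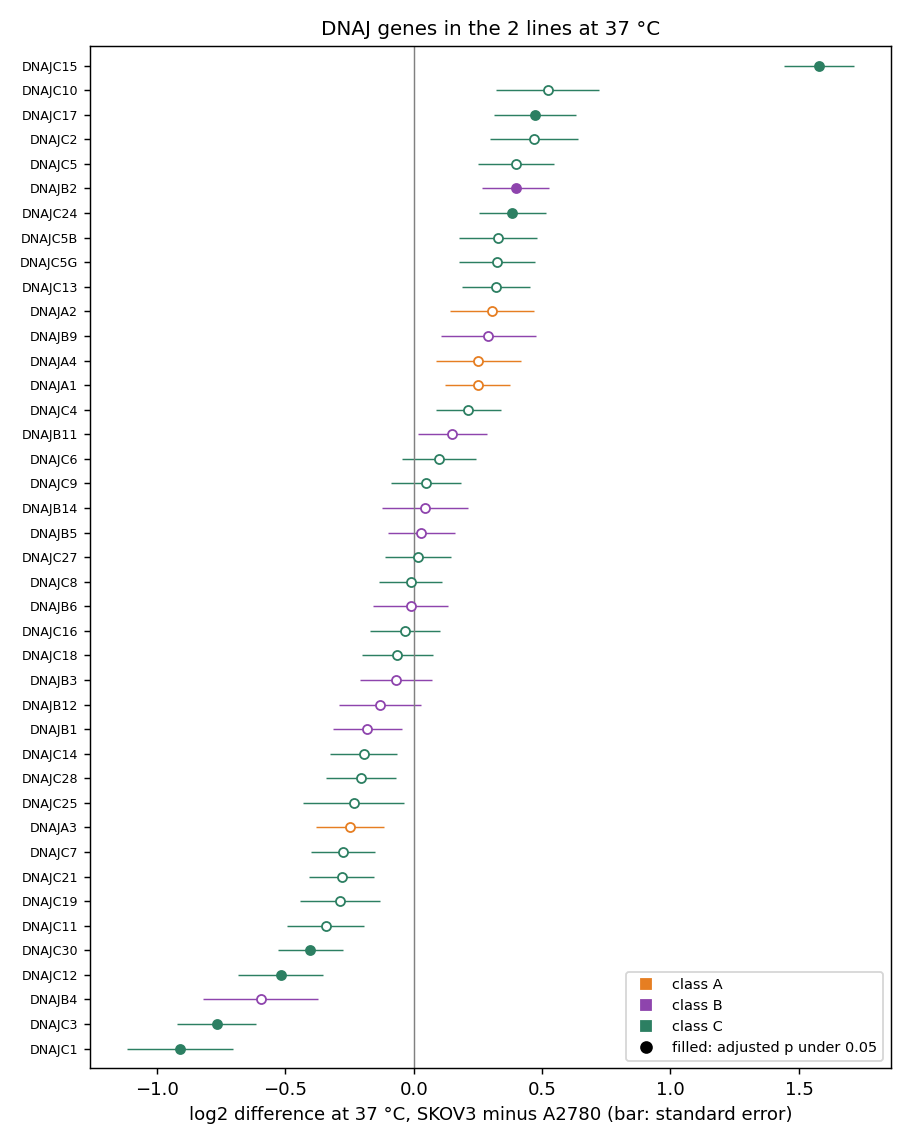
Log2 difference at 37 °C, SKOV3 minus A2780, for the 41 tested DNAJ genes (bars the standard error, colours the class, filled where the adjusted p is under 0.05). DNAJC15 is the highest at 1.58 and DNAJC1 the lowest at -0.91.

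DNAJC15, or MCJ, an inner mitochondrial membrane protein that restrains respiratory complex I, had the largest difference of the family. It was 6.38 and 6.13 in A2780 at 37 °C and 6.45 and 6.25 at 46 °C. In SKOV3 it was 7.82 and 7.85 at 37 °C and 7.87 and 7.99 at 46 °C. None of the 4 A2780 arrays was above background and the lines did not overlap. The measured difference was 1.58 (adjusted p = 9.65e-07), and against the background of the A2780 arrays the level in SKOV3 was at least 2.7-fold higher. The call held in all 19 alternatives. Heat left it with a change of 0.0944 in A2780 and 0.0928 in SKOV3 (adjusted p = 0.791 and 0.836).

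The ER members DNAJC1 and DNAJC3 were higher in A2780. DNAJC3, or P58IPK, an ER co-chaperone of HSPA5 also known as an inhibitor of the kinase PERK, was 7.46 and 7.35 in A2780 and 6.68 and 6.59 in SKOV3 at 37 °C, a difference of -0.768 (adjusted p = 0.00204) that held in all 19 alternatives. The difference was 1.7-fold, below the 2-fold minimum, which only DNAJC15 of the genes called at 37 °C reached. At 46 °C DNAJC3 was 7.94 and 7.49 in A2780 and 6.76 and 6.91 in SKOV3. DNAJC1, or ERdj1, an ER membrane protein that contacts ribosomes, was 8.04 and 8.37 in A2780 and 7.08 and 7.51 in SKOV3 at 37 °C, a difference of -0.91 (adjusted p = 0.00465). At 46 °C it was 8.25 and 8.45 in A2780 and 7.73 and 7.08 in SKOV3. Its call was lost without A2780 control replicate 2 (adjusted p = 0.05) or SKOV3 control replicate 1 (0.0829). HSPA5, their HSP70 partner, also differed at 37 °C, by -1.66 (adjusted p = 1.49e-06). The exchange factor HYOU1 went the other way, by 0.641 (adjusted p = 0.00312). Of the 29 partner genes tested, 9 were higher in SKOV3 at 37 °C and 2 lower, against 15.3% and 13.5% of all genes tested.

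**Figure D5:**
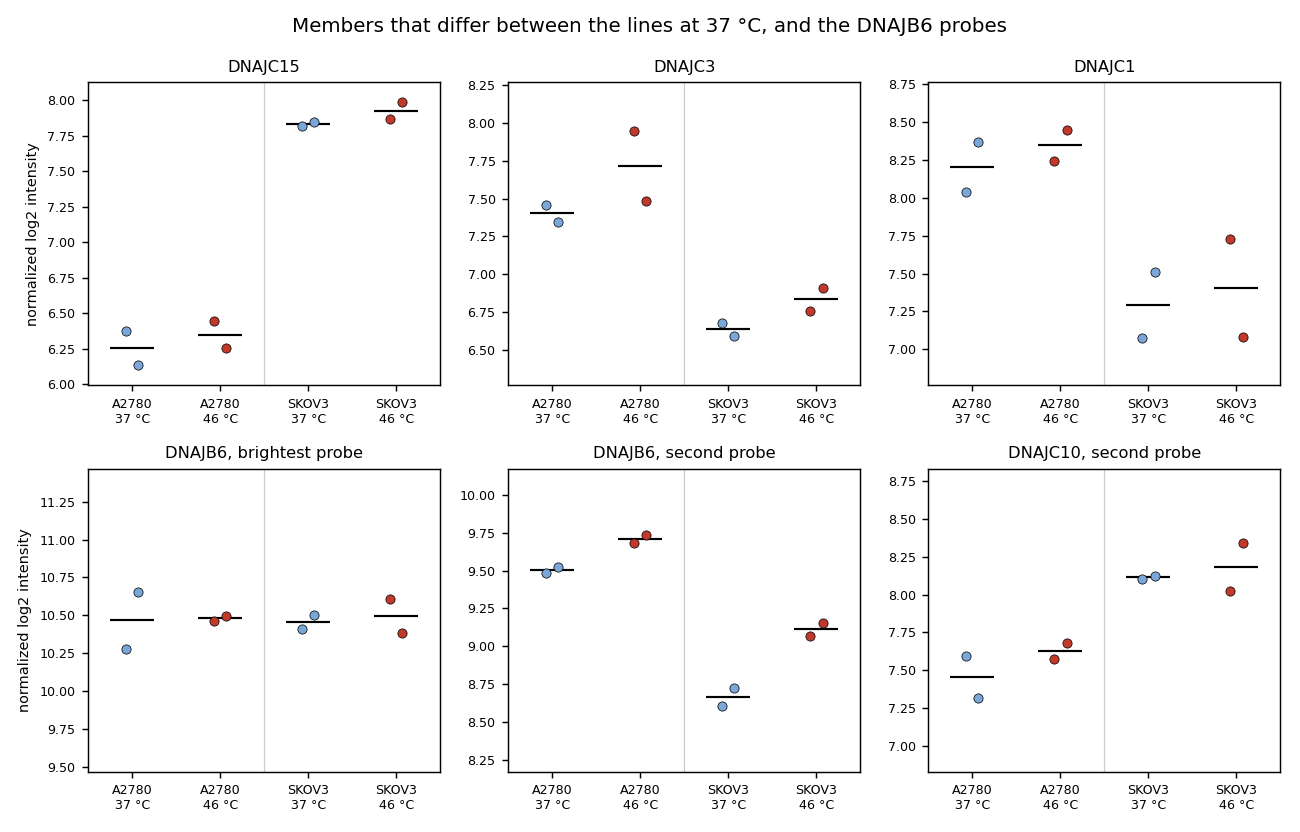
Normalized log2 intensity of 5 members on each of the 8 arrays, with 2 probes for DNAJB6 (points; lines are group means of 2 arrays; each panel has its own scale, which does not start at 0). DNAJC10 is drawn from its second probe, and its brightest probe, by which it was counted, did not pass limma's test at 37 °C (adjusted p = 0.0721). SKOV3 lies above A2780 for DNAJC15 and below it for DNAJC3, DNAJC1 and the second DNAJB6 probe, while the brightest DNAJB6 probe overlaps in all groups.

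The other 5 differences at 37 °C were smaller. DNAJC30, a mitochondrial protein of complex I turnover, was 7.48 and 7.31 in A2780 and 7.01 and 6.99 in SKOV3 at 37 °C (-0.402; adjusted p = 0.0311; other probe -0.32, adjusted p = 0.09). At 46 °C it was 7.28 and 7.22 in A2780 and 7.05 and 6.92 in SKOV3. It lost its call without A2780 control replicate 1 (0.15) or SKOV3 control replicate 1 (0.124) or 2 (0.142). DNAJC12, a co-chaperone of the aromatic amino acid hydroxylases, was 6.60 and 6.82 in A2780 and 6.28 and 6.10 in SKOV3 at 37 °C (-0.518; adjusted p = 0.0327), and 6.72 and 6.23 in A2780 and 6.15 and 6.30 in SKOV3 at 46 °C. SKOV3 was not above background for it at 37 °C, so the A2780 level was at least 1.18-fold higher. That call was lost without A2780 control replicate 2 (adjusted p = 0.193) or SKOV3 control replicate 1 (0.0752) or 2 (0.212). It was also lost with the authors' log2 values (change -0.326; adjusted p = 0.0694) and with the floor in place of background correction (change -0.326; adjusted p = 0.0689).

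DNAJC17, a J protein linked to splicing, was 7.73 and 7.52 in A2780 and 8.02 and 8.17 in SKOV3 (0.471; adjusted p = 0.0422). At 46 °C it was 8.16 and 7.73 in A2780 and 8.15 and 7.93 in SKOV3. DNAJC24 differed by 0.385 (adjusted p = 0.0434) and DNAJB2 by 0.397 (adjusted p = 0.0361), with the array values given above. The dimmer DNAJB2 probe gave 0.053 (adjusted p = 0.82). DNAJC17 held its call in 11 of 19 alternatives. It lost it without A2780 control replicate 2 (adjusted p = 0.225) or SKOV3 control replicate 1 (0.099) or 2 (0.234), with the authors' log2 values (0.0546), the floor (0.0558), a trended and robust prior (0.0501) or median scaling (change 0.000188; 0.999), and without normalization (0.681). DNAJC24 held its call in 9 of 19 and lost it with a trended and robust prior (0.0651), with median scaling (0.739), without normalization (0.443) and without any one of the 4 control arrays or of the 2 heated A2780 arrays (0.0548 to 0.18). DNAJB2 lost its call without A2780 control replicate 2 (0.166), A2780 hyperthermia replicate 1 or 2 (0.0512 each) or SKOV3 control replicate 1 (0.105) or 2 (0.19). DNAJB4, at -0.596 (adjusted p = 0.0642), passed with median scaling (-1.1, adjusted p = 0.00231) and without normalization (-1.22, adjusted p = 0.0011). It also passed with the 37 °C arrays alone (adjusted p = 0.0073). Leaving out SKOV3 hyperthermia replicate 1 or 2 cannot move its difference of -0.596, which is taken from 37 °C arrays. It changes only the estimate of the spread. The other DNAJB4 probe gave -0.247 (adjusted p = 0.526). DNAJC2 was at 0.467 (adjusted p = 0.0592), and at 0.777 without A2780 control replicate 1.

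Probes of one gene did not always give the same answer. Of the 45 genes, 14 had several probes, and 12 had several that were tested. DNAJB6, known for holding back the aggregation of polyglutamine proteins, had its brightest probe at 10.28 and 10.65 in A2780 and 10.41 and 10.50 in SKOV3 at 37 °C, a difference of -0.01 (adjusted p = 0.968). Its second probe, annotated to another RefSeq transcript, was 9.48 and 9.52 in A2780 and 8.61 and 8.72 in SKOV3, a difference of -0.84 (adjusted p = 0.0002). At 46 °C that probe was 9.68 and 9.73 in A2780 and 9.07 and 9.15 in SKOV3, a change of 0.45 in SKOV3 that did not pass (adjusted p = 0.0905). Whether the probes report isoforms that differ between the lines was not tested.

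DNAJC10, or ERdj5, an ER disulfide reductase, differed by 0.66 at its second probe (adjusted p = 0.0041) and by 0.52 at its brightest (adjusted p = 0.0721). The dimmest tested DNAJC12 probe, not above background in SKOV3 at 37 °C, was at least 1.18-fold higher in A2780 (adjusted p = 0.00081). The second brightest DNAJC12 probe did not pass (adjusted p = 0.254). The probes of DNAJC28 differed in detection: 1, by which the gene was counted, was above background on all 8 arrays, and each of the other 3 on at most 1 array. Which of them reports the gene was not tested. DNAJB6, DNAJC10 and DNAJC28 are described here because their probes differed or because a probe beside the counted one passed, which was seen in the data.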

How the data were processed

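Per the labels' protocols, biotin-labelled cRNA from total RNA was hybridised to Illumina bead arrays, and BeadStudio is named in the submitters' processing notes. The authors deposited a table of non-negative signal intensity per probe, on a linear scale and not normalized, and a table of log2 values per array, which lay within 0.0246 of the quantile-normalized log2 signal. No aligner or genome step applies, and a detection p was not used here. From the intensities, limma 3.58.1 (R 4.3.3) was run with normexp background correction (offset 50) on the signal alone, quantile normalization and log2. Probes with 1 gene symbol in the platform annotation (30113 of 47231; 8 had several and 17110 were not listed) and a mean above the 40th percentile (6.16) were tested, 19546 probes of 14189 genes. A probe counted as above background on an array past the 0.99 quantile of a normal curve centred on the mode of that array's log2 signals.

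One model of 4 group means over the 8 arrays gave 4 two-sided contrasts with Benjamini-Hochberg adjustment over the 19546 probes and a threshold of 0.05. Symbols were updated through the RefSeq gene table of GRCh38.p14, where all 70 member probes were found. The 2 arrays per group limit the precision, and the fit borrows spread across probes (prior degrees of freedom 9.47, residual 4). The fitting code was tested on simulated data. Array values are printed for every DNAJ gene called in any contrast, for DNAJB1 and DNAJB9, and for the member of each class with the largest change in each line. Array values of DNAJA1, an example of the cytosolic group, were added outside this rule. Other members are given by counts, median and range with up to 2 examples per role group, and the exceptions are marked. The members and gene lists were chosen with earlier results of these data known. Alternatives covered normalization, background, filter, prior, block, samples, unit, threshold and left-out arrays. The threshold alternative, a minimum change of 2-fold, was applied to counts only and is not among the 19 given for a gene. Probe DNAJC25-GNG10, a readthrough symbol on 2 probes, was left out.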

Additional observations from a re-analysis of the deposited data

How the results depend on the processing

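The A2780 response of the DNAJ genes depended most on the normalization. Against 4 DNAJ genes called as reported, median scaling called 10, no normalization between arrays 11 and a minimum change of 2-fold 2; leaving out 1 array gave 1 to 6. In SKOV3, against 3, every alternative gave 2 or 3, leaving out 1 array included. The difference between the responses stayed at 0 in every alternative. Between the lines at 37 °C, against 8, median scaling called 17, no normalization 20 and the 2-fold minimum 1; leaving out 1 array gave 2 to 10. Over all probes the counts were 747 in A2780 (5714 with median scaling, 6770 without normalization, 166 with the 2-fold minimum, 272 to 1619 leaving out 1 array), 491 in SKOV3 (265, 195, 144, and 191 to 609), 17 for the difference (8, 4, 29 without a filter, and 1 to 215) and 5333 between the lines (1223 with the 2-fold minimum, and 3174 to 5689). With median scaling 966 of the 7359 probes called between the lines were higher in SKOV3, and without normalization 673 of 7943, against 2668 of 5333 as reported.

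Direction turned for DNAJB2 in A2780 without normalization (-0.0292), for DNAJB2 between the lines with median scaling (-0.135) and without normalization (-0.256), for DNAJC24 likewise (-0.0927 and -0.214), and for DNAJC17 without normalization (-0.122). Both settings leave in place a median change of all probes in A2780, of -0.278 and -0.383, that quantile normalization removes; the cause of that change was not tested. The first of 2 limits is the size of the groups, since no fit of 2 arrays each separates culture from array effects. The other is dim probes, whose changes are compressed near background. Slide as a block was not run, since no slide is named in the files used here.

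The labels number the replicates of each group alike but do not say that a number marks a shared culture or day. Deviations of arrays with the same number correlated between groups at -0.259 to 0.275, so the numbers were not taken to pair the samples. With the replicate number as a block the DNAJ counts were 4, 3, 0 and 7 and the counts over all probes 679, 466, 16 and 5147, in A2780, SKOV3, the difference and the lines at 37 °C. The DNAJ gene that lost its call under the block was DNAJC24 at 37 °C (adjusted p = 0.0554).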
